A study of Mus musculus with 8 samples.

Results

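The genes described here are 10 genes of cell adhesion in mouse macrophages: the surface receptors Icam1, Cd44 and Selplg, the matrix protein gene Emilin2, and the focal adhesion genes Fermt3, Tln1, Vcl, Pxn, Ptk2b and Ptk2. They were taken by symbol from a deposited table of 41444 genes, and all 10 were found and were high enough to be tested among 11851 genes. The cells were wild-type C57BL/6 bone marrow-derived macrophages, grown from flushed femur and tibia marrow in medium with 100 ng/mL of the macrophage growth factor M-CSF. The vehicle group (4 libraries) received vehicle control and the SLIT2 group (4 libraries) 6 nM SLIT2 for 16 hours. SLIT2 is a secreted guidance protein that binds ROBO receptors and steers growing axons, and the comparison asks how it changes transcription in these cells. Age and sex of the mice are not given in the labels, and no label says that the replicates came from separate animals or cultures, so p-values measure the spread between these libraries, which may be technical.

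Macrophages hold on to matrix and to other cells through integrins and through other receptors. Inside the cell, talin and kindlin bind the tail of an integrin and switch it on, vinculin ties talin to actin, and paxillin gathers the kinases FAK and PYK2, which pass the adhesion signal on. In macrophages these proteins build podosomes and focal contacts, which are needed for spreading and migration. ICAM-1, CD44 and PSGL-1 act outside this machinery, as a ligand of beta2 integrins, a receptor of hyaluronan and a ligand of selectins.

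Values were regularized-log (rlog) values on a log2 scale, which the authors corrected for library size, so 1 unit is a doubling for well-expressed genes. The depth per library is unknown. All 10 macrophage markers had a mean of at least 4, with Lyz2 at 18.8 and Csf1r at 15.8 in vehicle, and their summed linear values ran from 561163 to 800261 in vehicle and from 579194 to 821577 in SLIT2 libraries. Of these markers, Mrc1 (1.18), Fcgr1 (1.17) and Aif1 (0.47) rose and Cd68 fell by 0.25 on the log2 scale in the limma test described below, and 6 did not pass. The 12 fibroblast and endothelial markers summed to between 1226 and 1495 in vehicle and between 1399 and 1788 in SLIT2 libraries, and Tek and Cldn5 were listed at 0. The 10 neutrophil and progenitor markers summed to between 2485 and 2849 in vehicle and between 3763 and 4827 in SLIT2. Csf3r led this sum, and Ly6g was listed at 0. Only 3 of these markers were high enough to test. With SLIT2, 1 was higher and passed and 2 were lower and did not pass, so the sum does not stand for the list. Sums were 559 to 1489 in vehicle and 1001 to 5011 in SLIT2 for the 9 mast cell and platelet markers, led by Pf4. Of the 2 of these tested, 1 was higher and 1 lower, and neither passed. None of the 10 lymphocyte markers and 1 of the 8 dendritic cell markers reached a mean of 4. The ribosomal RNA-like gene Gm42418 took 1.94% to 4.99% of the summed linear values in vehicle and 0.602% to 1.80% in SLIT2 libraries. The part of these marker and Gm42418 differences in the results below was not tested. Replicates 1 and 2 stood apart from replicates 3 and 4 in both groups, with Xist between 7.47 and 7.65 in the first set and between 12.69 and 12.79 in the second. Ddx3y, a gene of the Y chromosome, went the other way, between 10.75 and 10.83 in the first set and between 5.9 and 6.45 in the second. The sets thus differed in sex-linked transcripts, and the part of this in the set differences below was not tested. In bulk RNA, fewer cells of a type and less RNA per cell cannot be told apart.

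With SLIT2, the receptor gene Icam1 rose and 3 genes of the focal adhesion core fell, Tln1, Vcl and Ptk2b. The other 6 genes did not pass the test. The 4 that passed did so in a limma test over all 11851 genes at an adjusted p of 0.05, where 13.3% of genes passed, 6.76% higher and 6.58% lower. The median difference of the 10 genes was -0.065 on the log2 scale and 5 of 10 were positive, beside a median of 0.0025 and 50.9% positive over all genes tested. Groups did not overlap at 5 of the 10 genes (Icam1, Cd44, Tln1, Vcl and Ptk2b) and at 20.5% of all genes tested. With the replicate number as a block, 7 of the 10 passed, 2 higher and 5 lower, where 33% of all genes did. Here and below, this block takes libraries with the same number as pairs, which is not shown, so its p may be too small. With each duplicate pair (replicates 1 and 2, or 3 and 4) averaged and the set as a block, 1 of the 10 passed (Icam1). In that fit of fewer samples 688 of 11851 genes passed. Calls depended on single libraries: without vehicle replicate 4 or without SLIT2 replicate 2 none of the 10 genes passed by limma (5 in each case at an unadjusted p of 0.05, as were 24.5% and 22.7% of all genes tested), and 1 or 2 passed without any other library.

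**Figure D1:**
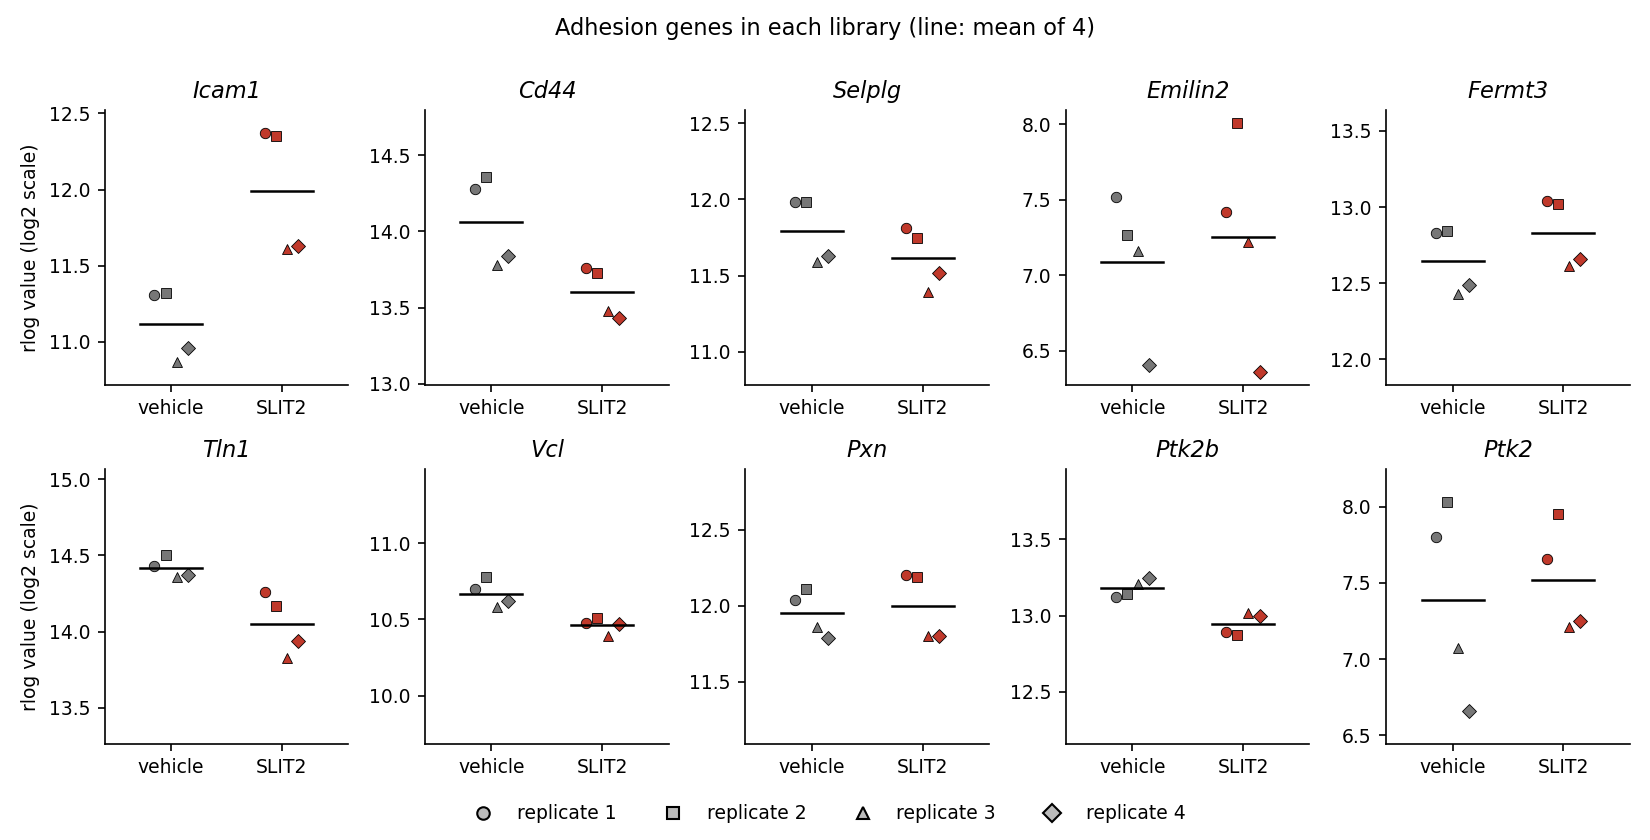
rlog values (log2 scale, 1 panel per gene, each with its own axis) of the 10 adhesion genes in the 4 vehicle libraries (grey) and the 4 SLIT2 libraries (red), with the mean of 4 as a line and a symbol for each replicate number. Icam1 lies higher and Cd44, Tln1, Vcl and Ptk2b lie lower in SLIT2 without overlap, and replicates 1 and 2 (circle, square) sit apart from 3 and 4 (triangle, diamond) in most panels.

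The promoters of Icam1, which rose, and of Vcl, which fell, are shown because each holds a match to a motif that few promoters hold. Both are the 250 bases before the RefSeq transcript start in GRCm38.p6, on the plus strand, and capitals mark the STAT motif in Icam1 (chr9:21015690-21015939) and the SRF CArG motif in Vcl (chr14:20929148-20929397).
Icam1: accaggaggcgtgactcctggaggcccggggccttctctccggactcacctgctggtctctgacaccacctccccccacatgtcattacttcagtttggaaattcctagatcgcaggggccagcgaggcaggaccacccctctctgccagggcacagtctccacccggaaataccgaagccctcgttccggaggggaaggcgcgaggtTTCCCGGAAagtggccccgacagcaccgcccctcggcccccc
Vcl: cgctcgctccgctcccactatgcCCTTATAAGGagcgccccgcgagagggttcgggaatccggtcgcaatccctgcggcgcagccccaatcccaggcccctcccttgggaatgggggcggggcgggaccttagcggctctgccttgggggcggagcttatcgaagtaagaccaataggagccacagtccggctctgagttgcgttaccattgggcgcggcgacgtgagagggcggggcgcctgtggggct
The STAT motif (TTCNNNGAA, which reads alike on both strands) lies 42 to 34 bases before the Icam1 start, and 8.3% of 32851 mouse promoter windows of the same length hold a match. The SRF CArG motif lies 227 to 218 bases before the Vcl start, and 1.63% of windows hold it. Windows of 300 bases, from 250 before to 50 after the start, were searched on both strands for 6 of the 10 genes: Icam1, Cd44, Emilin2 (with 2 starts), Fermt3, Tln1 and Vcl. Among these, the STAT motif was found in 2 (Icam1 and Emilin2) and the CArG motif (CCWWWWWWGG) in 1. The NF-kB motif was searched only as GGGRNWYYCC, and this form was found in 0 of them and in 4.51% of all windows. Other forms of the NF-kB motif were not searched and may be present. The Icam1 sequence above holds TGGAAATTCC, which differs from the searched form in its first letter only. How many windows hold that form was not counted. The GC box GGGCGG was found in 4 of the 6 (Icam1, Cd44, Emilin2 and Vcl) and in 35.7% of all windows, and the PU.1 motif GAGGAA in 2 (Cd44 and Tln1) and in 28.3%. In Vcl a pair of GC boxes overlap each other by a base. A match describes these letters only and is not a binding site.

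Icam1 encodes ICAM-1, the surface ligand that beta2 integrins of other leukocytes bind (ENSMUSG00000037405, chromosome 9, 21015985 to 21028817, plus strand, GRCm38). Its rlog values were 11.31, 11.32, 10.87 and 10.96 in vehicle replicates 1 to 4 and 12.37, 12.35, 11.61 and 11.63 in SLIT2 replicates 1 to 4. Every SLIT2 library lay above every vehicle library. The mean rose from 11.12 ± 0.23 to 11.99 ± 0.43 (SD, n = 4), a difference of 0.88 on the log2 scale or 1.83-fold (SE 0.21, 95% interval 0.39 to 1.36, limma adjusted p = 0.0300). The exact two-sided permutation test over the 8 libraries gave p = 0.0286, the smallest that 4 against 4 allows. Every gene whose groups do not overlap gets this p, and 20.5% of all genes tested are such genes. Here and for the genes below, this test exchanges libraries freely across the replicate sets. It takes duplicates as independent, so its p may be too small. The rise measured 1.05 for replicates 1 and 2 but 0.71 for 3 and 4, and this difference between the sets passed its own limma test (-0.34, SE 0.051, adjusted p = 0.0129), which rests on the spread within duplicates. Icam1 was the only 1 of the 10 to pass that test, which 4.4% of all genes tested passed. The call on all libraries was lost without vehicle replicate 1, 3 or 4 or SLIT2 replicate 1 or 2 (adjusted p between 0.0504 and 0.0777), while the difference stayed between 0.75 and 1.00. An antisense gene, Gm47079, shares 511 exonic bases with Icam1, 11.7% of its exonic length, and no source used here says whether reads were counted by strand.

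Cd44 encodes the hyaluronan receptor CD44 (ENSMUSG00000005087, chromosome 2, 102811141 to 102901665, minus strand). It was at 14.28, 14.36, 13.78 and 13.84 in vehicle and at 13.76, 13.73, 13.48 and 13.43 in SLIT2 replicates 1 to 4. All SLIT2 values were below all vehicle values (exact permutation p = 0.0286). The nearest pair, vehicle replicate 3 and SLIT2 replicate 1, lay only 0.02 apart. The difference of -0.47 (SE 0.15, 95% interval -0.81 to -0.12) did not pass over all libraries (limma adjusted p = 0.0827) and passed with the replicate block (adjusted p = 0.00153). Replicates 1 and 2 gave -0.58, replicates 3 and 4 gave -0.36. With quantile normalization the limma adjusted p was 0.0280. With each duplicate pair averaged and the set as a block it was 0.0680, which did not pass.

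Selplg encodes PSGL-1, which carries the sugars that selectins bind (ENSMUSG00000048163, chromosome 5, 113818536 to 113832644, minus strand). Its values were 11.98, 11.98, 11.59 and 11.63 in vehicle and 11.81, 11.75, 11.39 and 11.52 in SLIT2. The groups overlapped, and the replicate sets lay farther apart than the treatments. The difference was -0.18 (95% interval -0.47 to 0.12, limma adjusted p = 0.445, and 0.00602 with the replicate block), with -0.20 for replicates 1 and 2 and -0.16 for 3 and 4. Each SLIT2 library was lower than the vehicle library with its number. With each duplicate pair averaged and the set as a block, Selplg did not pass (limma adjusted p = 0.101).

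Emilin2 encodes an elastin-associated matrix glycoprotein (ENSMUSG00000024053, chromosome 17, 71252172 to 71311978, minus strand). It was at 7.52, 7.27, 7.16 and 6.41 in vehicle and at 7.42, 8.01, 7.22 and 6.36 in SLIT2. Replicate 4 was lowest in both groups, and the groups overlapped over nearly their whole range. The difference of 0.16 had a 95% interval from -0.66 to 0.99 (limma adjusted p = 0.843, and 0.437 with the block), which holds both a fall and a rise of 1.5-fold.

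Fermt3 encodes kindlin-3, the kindlin of blood cells, which switches on integrins together with talin (ENSMUSG00000024965, chromosome 19, 6998958 to 7019469, minus strand). Its values were 12.83, 12.84, 12.43 and 12.49 in vehicle and 13.04, 13.02, 12.61 and 12.66 in SLIT2. Each SLIT2 library was higher than the vehicle library with the same number, while the groups as a whole overlapped. The difference was 0.19 (95% interval -0.13 to 0.50) with a limma adjusted p of 0.464, and of 0.00212 with the replicate block. Within the sets the difference was 0.20 and 0.18. With each duplicate pair averaged and the set as a block, Fermt3 did not pass (limma adjusted p = 0.0917).

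Tln1 encodes talin-1, the partner of kindlin at integrin tails and the link from there to actin (ENSMUSG00000028465, chromosome 4, 43531519 to 43562691, minus strand). It was at 14.43, 14.50, 14.36 and 14.37 in vehicle and at 14.26, 14.17, 13.83 and 13.94 in SLIT2. The vehicle libraries lay close together, and all 4 SLIT2 libraries were below them. Talin-1 mRNA fell by 0.37 on the log2 scale, 0.776-fold of vehicle (SE 0.095, 95% interval -0.58 to -0.15, limma adjusted p = 0.0401, exact permutation p = 0.0286). Replicates 1 and 2 gave -0.25, replicates 3 and 4 gave -0.48, a difference between the sets that did not pass (adjusted p = 0.0978). The call was kept without SLIT2 replicate 1 and lost without any other library (limma adjusted p between 0.0567 and 0.103). It was also lost with each duplicate pair averaged and the set as a block (0.0970) and with no filter on low genes (0.0560). Creb3 shares 360 exonic bases with Tln1 on the opposite strand, 3.7% of the exonic length, and had a difference of 0.083 (adjusted p = 0.579).

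The values of both integrin activators were also set against each other within each library, a comparison chosen after their values were seen, as 1 of 3 pairs. Fermt3 minus Tln1 ran from -1.93 to -1.60 in vehicle and from -1.28 to -1.15 in SLIT2, a change of 0.55 on the log2 scale without overlap. The exact permutation p was 0.0286, the smallest possible, and 0.0857 adjusted over the 3 pairs. A pair that alone has the smallest possible p cannot pass this correction, so it decides nothing here. The correction also covers only these 3 pairs. Ptk2 minus Ptk2b (change of 0.36, exact permutation p = 0.400, adjusted 0.400) and Pxn minus Vcl (change of 0.26, p = 0.0857, adjusted 0.129) did not pass.

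Vcl encodes vinculin, which binds talin and actin and strengthens adhesions under force (ENSMUSG00000021823, chromosome 14, 20929398 to 21033676, plus strand). Its values were 10.70, 10.78, 10.58 and 10.62 in vehicle and 10.48, 10.51, 10.39 and 10.47 in SLIT2. All SLIT2 libraries were below all vehicle libraries, the nearest pair 0.07 apart. Vinculin mRNA fell by 0.21 on the log2 scale, 0.866-fold of vehicle (SE 0.055, 95% interval -0.33 to -0.08, limma adjusted p = 0.0433, exact permutation p = 0.0286), with -0.25 and -0.17 in the sets. The call was kept without vehicle replicate 3 and lost without any other library (limma adjusted p between 0.0670 and 0.108). It was lost as well with averaged duplicates (0.101), with no filter on low genes (0.0851) and without the mean-variance trend (0.0562). Ap3m1 shares 2090 exonic bases with Vcl on the opposite strand, 25.5% of the exonic length of Vcl. Without a stated strand setting, the value of Vcl is uncertain. Ap3m1 itself had a difference of 0.13 (adjusted p = 0.710).

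Pxn encodes paxillin, the scaffold that vinculin and the adhesion kinases bind (ENSMUSG00000029528, chromosome 5, 115506676 to 115555987, plus strand). It was at 12.04, 12.11, 11.86 and 11.79 in vehicle and at 12.20, 12.19, 11.80 and 11.80 in SLIT2. The groups overlapped, and the sets went in opposite directions, 0.12 in replicates 1 and 2 and -0.025 in replicates 3 and 4, a difference between sets that did not pass (limma adjusted p = 0.163). Over all libraries the difference was 0.048 (95% interval -0.23 to 0.32, limma adjusted p = 0.866, and 0.407 with the block).

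Ptk2b encodes PYK2, the FAK-family kinase that is abundant in macrophages and osteoclasts (ENSMUSG00000059456, chromosome 14, 66153257 to 66281052, minus strand). Its values were 13.12, 13.14, 13.21 and 13.25 in vehicle and 12.89, 12.87, 13.02 and 13.00 in SLIT2. The libraries of each group lay within 0.15 of each other, and all 4 SLIT2 libraries were below all 4 vehicle libraries. PYK2 mRNA fell by 0.24 on the log2 scale, 0.850-fold of vehicle (SE 0.052, 95% interval -0.35 to -0.12), with the smallest adjusted p of the 10 genes (limma adjusted p = 0.0213, exact permutation p = 0.0286). By replicate set, the fall was -0.25 (1 and 2) and -0.22 (3 and 4). The call was lost without vehicle replicate 3 or 4 or SLIT2 replicate 1 or 2 (limma adjusted p between 0.0556 and 0.0623), with quantile normalization (0.0705) and with averaged duplicates (0.0705).

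Ptk2 encodes FAK, the widely expressed kinase of the same family (ENSMUSG00000022607, chromosome 15, 73205102 to 73423280, minus strand). It was at 7.80, 8.03, 7.07 and 6.66 in vehicle and at 7.66, 7.95, 7.21 and 7.25 in SLIT2. Replicates 1 and 2 were above replicates 3 and 4 in both groups, and the treatments overlapped. The difference was 0.13 (95% interval -0.59 to 0.85, limma adjusted p = 0.862, and 0.481 with the block), with -0.11 for replicates 1 and 2 and 0.37 for 3 and 4, which did not pass the test of the difference (adjusted p = 0.287).

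**Figure D2:**
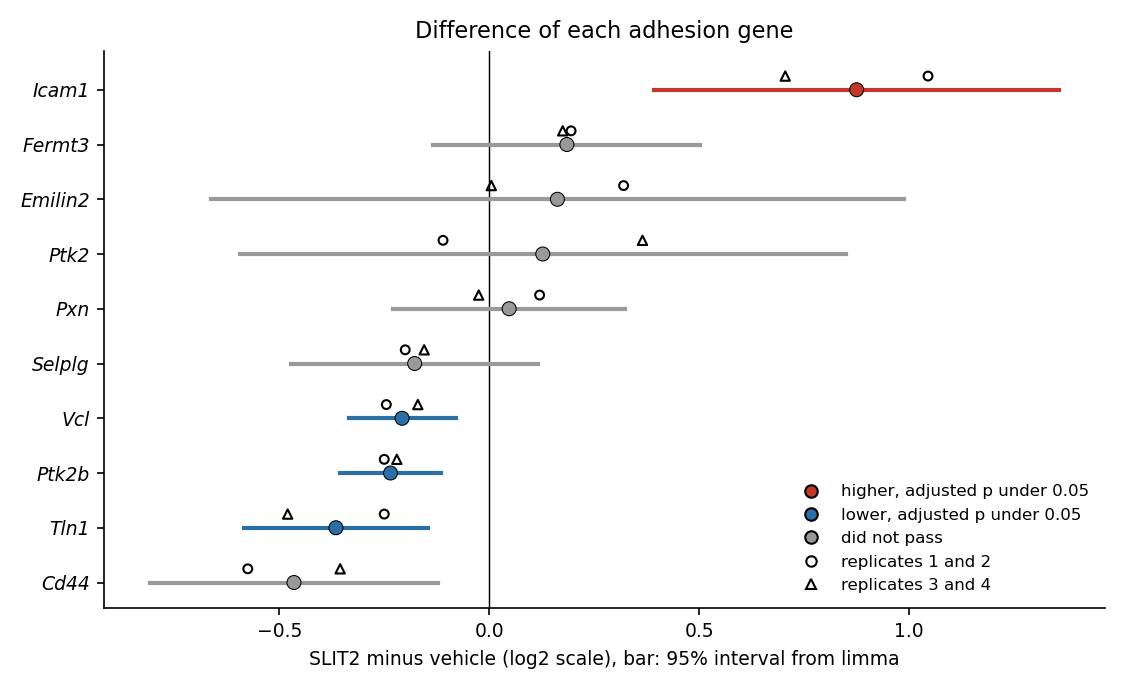
SLIT2 minus vehicle (log2 scale) of each adhesion gene, as a filled point with its 95% interval from limma, coloured by the call, and as open symbols in replicates 1 and 2 (circle) and replicates 3 and 4 (triangle). Icam1 stands at 0.88, Tln1, Ptk2b and Vcl between -0.37 and -0.21, and the open symbols lie on opposite sides of 0 for Ptk2 and Pxn.

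Levels of different genes can be compared only per length, so the exonic length in GENCODE M21 was divided out (rlog minus log2 of the length in kb). In vehicle, the order was Cd44 (11.30), Tln1 (11.12), Ptk2b (10.29), Fermt3 (10.12), Selplg (9.70), Icam1 (8.99), Pxn (8.92), Vcl (7.64), Emilin2 (4.63) and Ptk2 (3.83) on this scale. Libraries of neighbouring genes overlapped between Cd44 and Tln1, Ptk2b and Fermt3, Icam1 and Pxn, and Emilin2 and Ptk2, so these neighbours are not separated. The kindlin and talin genes and PYK2 were among the higher of the 10 and FAK and Emilin2 the lowest. With SLIT2 the mean of Icam1 was 9.87, the fifth in order where it had been the sixth, and Fermt3 (10.30) was ahead of Ptk2b (10.06). Libraries of Icam1 and Selplg overlapped there, as did those of Fermt3 and Ptk2b, so neither order is separated.

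The 10 genes differed in what they varied with. Of the sum of squares across the 8 libraries, treatment accounted for 79.6% in Ptk2b, 73.2% in Vcl, 68.3% in Icam1, 67.0% in Tln1 and 55.2% in Cd44. For Pxn it took 1.98%, for Ptk2 2.01% and for Emilin2 2.47%, while the replicate set took 91.2%, 81.6% and 55.1% of the same genes. The set took 80.5% for Fermt3 and 76.3% for Selplg, and treatment 18.6% and 19.9%. Over all genes tested, the set took 46.7% and treatment 37.3%. Of the 10 genes, 9 were higher in replicates 1 and 2 than in replicates 3 and 4, by up to 0.81 (Ptk2), and Ptk2b was lower by 0.12.

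**Figure D3:**
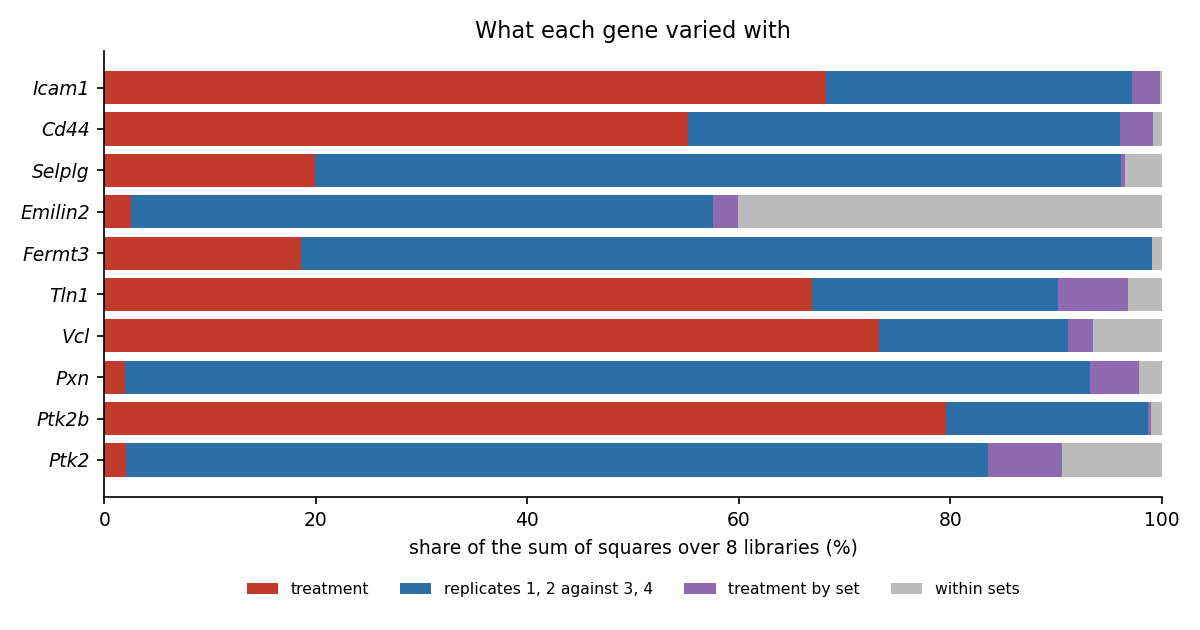
Share of the sum of squares over the 8 libraries (%) that each adhesion gene had for treatment (red), replicates 1 and 2 against 3 and 4 (blue), their interaction (purple) and the spread within the sets (grey). Treatment takes over 50% of the bar for Icam1, Cd44, Tln1, Vcl and Ptk2b, and the replicate set does for the other 5.

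Around these 10 genes, most of the integrin activation and actin linkage genes that passed fell, while the list as a whole went both ways. Of 29 such genes 23 were tested, and 2 were higher and 7 lower (39.1% passed, beside 13.3% of all genes tested). The median difference was -0.025, with 10 positive and 13 negative. Actn4, an actin crosslinker of adhesions, fell by 0.37 (SE 0.037, limma adjusted p = 5.86e-04). Parvb, a parvin that binds ILK and actin, fell by 0.46, and Fblim1, the filamin-binding protein migfilin, by 0.72 (adjusted p = 7.15e-04 and 0.00107). Sharpin, which holds integrins inactive and is part of a ubiquitin ligase, rose by 0.29 (adjusted p = 0.00706), and Rap1b, a small GTPase that recruits talin, by 0.15 (adjusted p = 0.0430, between 0.0666 and 0.118 when any single library was left out). With each duplicate pair averaged and the set as a block, Sharpin (limma adjusted p = 0.0679) and Rap1b (0.150) did not pass.

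Genes of kinase and paxillin signalling moved both ways. Of 26 tested, 3 were higher and 5 lower, 30.8% of the list beside 13.3% of all genes tested, and the median difference was 0.0088. Nedd9, a docking protein of FAK and PYK2, fell by 0.97 (SE 0.084, limma adjusted p = 2.60e-04) from 7.72 to 6.75. Elmo1, which activates Rac with DOCK proteins, fell by 0.24 (adjusted p = 0.00470) and Git1, which binds paxillin, by 0.24 (adjusted p = 0.0283). The Src-family kinase gene Lyn rose by 0.31 (adjusted p = 0.00273) and the adaptor gene Crk by 0.15 (adjusted p = 0.0299). Git1 lost its call without vehicle replicate 1 or 2 or SLIT2 replicate 2, 3 or 4, and Crk when any single library was left out, with limma adjusted p of up to 0.0790 and 0.0811. With averaged duplicates the calls of Lyn (limma adjusted p = 0.0578), Elmo1 (0.0705), Git1 (0.0733) and Crk (0.121) were lost. With the replicate block 7 were higher and 7 lower, where 33% of all genes tested passed.

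Partners of the adhesion receptors included genes that make or read their sugars. Of 31 listed, 21 were tested and 4 were higher and 4 lower (38.1%, beside 13.3% of all genes tested), with a median of -0.09. The block gave 6 higher and 7 lower, where 33% of all genes tested passed. Tpst1, which sulfates tyrosines such as those of PSGL-1, rose by 0.58 (limma adjusted p = 0.00106), and St3gal4, a sialyltransferase of selectin ligands, by 0.42 (adjusted p = 0.00669). Cemip2, a surface protein linked to hyaluronan breakdown, rose by 1.08 (SE 0.19, adjusted p = 0.00740), while the hyaluronidase gene Hyal1 fell by 0.64 (adjusted p = 0.0131). Naa80 shares 50.8% of the exonic bases of Hyal1 on the same strand, so its value is uncertain. Alcam, an adhesion molecule of the immunoglobulin family, fell by 0.84 (SE 0.054, adjusted p = 7.39e-05), and Ezr, the gene of ezrin, which ties CD44 and ICAM-1 to actin, by 0.24 (adjusted p = 0.0158). With averaged duplicates St3gal4 (limma adjusted p = 0.0545) and Ezr (0.0771) did not pass. The selectin genes Selp and Sele and the hyaluronan synthase genes Has1, Has2 and Has3 were too low to test.

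Among integrin subunits, 3 of 11 tested fell and none rose (27.3%, beside 13.3% of all genes tested). The median was -0.15. At an unadjusted p of 0.05, 2 were higher and 3 lower by limma, where 26.3% of all genes tested were under that p. By adjusted p with the block, 3 were higher and 5 lower, where 33% of all genes tested passed. Itgb3, the beta3 subunit, fell by 1.15 (SE 0.10, limma adjusted p = 3.40e-04), Itgax, the CD11c subunit, by 0.70 (adjusted p = 0.0131) and Itga5 by 0.15 (adjusted p = 0.0306). Itga5 kept its call without vehicle replicate 3 and lost it without any other library (up to 0.0841). Of the subunits that did not pass, Itgal, Itgb2 and Itgam belong to integrins that bind ICAM-1. Itgal differed by 0.0075 (limma adjusted p = 0.994). Itgb2 differed by -0.30 (0.290, and 0.00442 with the block) and Itgam by 0.74 (0.169, and 6.29e-04 with the block). With each duplicate pair averaged, neither passed (limma adjusted p = 0.0672 for Itgb2 and 0.0548 for Itgam), nor did Itga5 (0.121), while Itgb3 (0.0376) and Itgax (0.0304) did.

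In the podosome and actin core, all 28 genes were tested, 3 were higher and 2 lower (17.9%, beside 13.3% of all genes tested), and the median was -0.059. With the block 4 were higher and 10 lower, where 16.6% and 16.4% of all genes tested were. Arpc1b and Arpc3, subunits of the Arp2/3 complex that branches actin, rose by 0.27 and 0.21 (limma adjusted p = 0.00165 and 0.0385), and Cfl1, the gene of the actin-severing cofilin, by 0.17 (0.0222). Fmnl1, a formin of macrophages, fell by 0.37 (adjusted p = 0.00139) and Capg, an actin capping protein, by 0.28 (0.00553). Arpc3 kept its call without SLIT2 replicate 4 and lost it without any other library, and Cfl1 was called without vehicle replicate 4 or SLIT2 replicate 1 and lost without any other (limma adjusted p of up to 0.104 and 0.0637). Averaging the duplicates took the call from Arpc1b (limma adjusted p = 0.0631), Capg (0.0701), Arpc3 (0.0896) and Cfl1 (0.139).

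**Figure D4:**
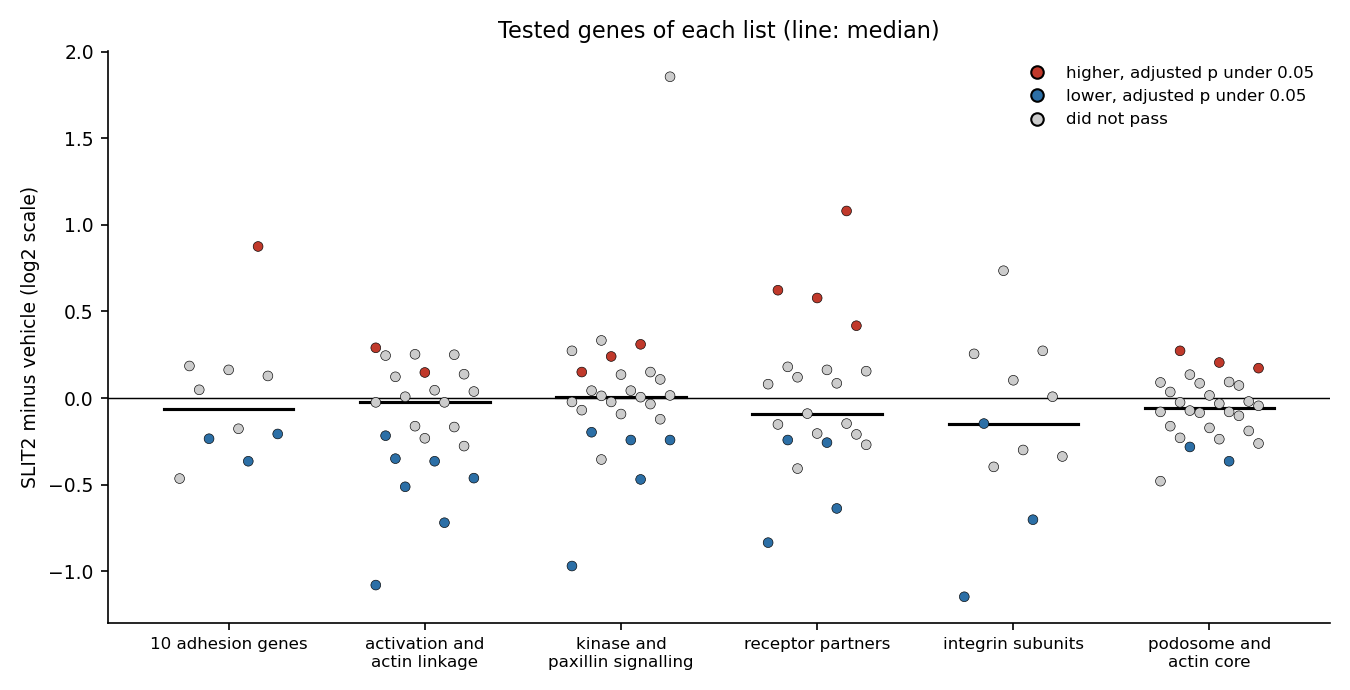
SLIT2 minus vehicle (log2 scale) of every tested gene in the 10 adhesion genes and the 5 related lists, with the median of each list as a line and genes past the limma threshold in red (higher) or blue (lower). Medians lie between -0.15 and 0.0088, with genes that passed on both sides of 0 except among integrin subunits, where those that passed were lower.

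By the naming rule, the tested genes whose rlog values over the 8 libraries were most like those of each called gene were named, with no claim of shared function. For Icam1 they were Plod3 (Pearson r 0.998), Chsy1 (0.997) and Slc31a1 (0.997), and their differences were 0.35, 0.81 and 0.58. For Tln1 they were Tnip1, Unc5a and Pik3cb (r between 0.988 and 0.989), for Vcl Atmin (0.991) and Fam120a (0.983), and for Ptk2b Ckap4 (0.998), Eya1 (0.998) and Nav2 (0.994). The 8 libraries share the treatment groups and the replicate sets, so each r describes these libraries only.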

How the data were processed

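RNA-seq values of 8 libraries were used. Per the labels' protocols, 300 ng of total RNA per sample went into a stranded mRNA kit with paired-end reads of 101 bp. The submitters' processing notes name FastQC, SAMtools, Picard, STAR, Salmon and DESeq2 with mm10 and GRCm38, while no source used here gives their role, order, settings or strand setting. The deposited values are the authors' rlog values on a log2 scale, which shrink low genes towards their mean, so differences of low genes are understated. The table holds no counts, so depth and counting error are unknown.

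limma 3.58.1 was run on genes averaging 4 or more (R 4.3.3, lmFit and eBayes with a trend), comparing SLIT2 with vehicle by two-sided p-values, Benjamini-Hochberg adjusted over all 11851 genes, with a threshold of 0.05. The steps were run on simulated data with independent noise and a set shift equal in both groups. In the real data the effect differed between sets for 4.4% of genes (limma), so the simulation does not vouch for the calls. Same-numbered samples deviated together (correlations of 0.637, 0.671, 0.753 and 0.587 across genes). The shared replicate sets can give such correlations, and different numbers within a set were not compared, so pairing by number is not shown. The replicate number was therefore left out of the main model, which holds treatment only, and the replicate block is given where it changes a call. The variation between the replicate sets, 46.7% of the sum of squares over all genes tested, stays in the error of the main model. Not passing it therefore does not show that a gene was unchanged. A fit on all 8 libraries with the set as the only block was not run. Lists were matched by gene identifier to GENCODE M21 and described by counts. Up to 3 called genes per direction and list were named, smallest p first, and for called members the 3 genes with the highest r. Itgal, Itgb2, Itgam, Itga4, Fgr and the other genes of the closing section were picked for naming once their values were known. The members and lists were chosen with earlier results of these data known. Promoters came from RefSeq (GRCm38.p6). A few genes that these rules named are not reported here, and every test and count kept them. The planned comparison of the FAK and PYK2 protein sequences is not analysed here. Alternatives were other filters, variance priors, scalings, the replicate block, averaged duplicates, each replicate set alone and each library left out.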

Additional observations from a re-analysis of the deposited data

Results flagged for a closer look

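Icam1 rose less in replicates 3 and 4 than in replicates 1 and 2, by -0.34 on the log2 scale (0.71 against 1.05, limma adjusted p = 0.0129). The test of the difference between these sets, which were told apart from the data and are not groups of the study, uses only the variation inside duplicate pairs and was passed by 521 genes, 4.4% of those tested.

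In the related lists, 9 genes passed the same test, 4 of them among the 11 integrin subunits tested. The effect in replicates 3 and 4 exceeded that in replicates 1 and 2 by 0.64 for Itga4 (-0.08 against -0.72, limma adjusted p = 0.00706), 0.51 for Itga6 (0.53 against 0.020, adjusted p = 0.00627), 0.31 for Itgam (0.89 against 0.58, adjusted p = 0.0136) and 0.31 for Itgav (-0.19 against -0.49, adjusted p = 0.0419). Further genes were Gcnt1 with 0.28 (adjusted p = 0.0278), Coro1a with 0.18 (0.0369) and Ilk with 0.17 (0.0494). The effect was lower in replicates 3 and 4 for Rap1a, by -0.28 (adjusted p = 0.0196), and for Tns1, by -0.40 (-1.28 against -0.88, adjusted p = 0.0446).

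Of 70 groups of 4 libraries examined for the named genes, 1 had a library far from the others. It was Crk in vehicle, with 12.52 in replicate 3 and 12.51 in the other libraries, a gap of the whole range (ratio 1) that is the last decimal of the deposited values. Chance flags about 1 in 20 such groups.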

How the results depend on the processing

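The numbers below are counts of genes past the limma threshold under each alternative. With the replicate block, 3912 of all genes passed, 7 of the 10 adhesion genes, 14 in kinase and paxillin signalling, 13 receptor partners, 8 integrin subunits and 14 podosome and actin genes. The block changed the call of Cd44, Selplg and Fermt3 and of no other adhesion gene. With each duplicate pair averaged and a block on the set, 688 of all genes passed, 1 adhesion gene (Icam1), 4 in activation and linkage, 4 in kinase signalling, 4 partners, 2 integrin subunits and 1 podosome gene; fewer samples enter that fit. With no filter on the mean, 1218 of 20452 genes passed, and among them were 2 adhesion genes and 4 in kinase signalling. In replicates 1 and 2 alone, 3962 of all genes, 8 adhesion genes, 14 in activation, 14 in kinase signalling, 15 partners, 9 integrins and 17 podosome genes passed. In replicates 3 and 4 alone these were 2880 of all genes, 7 integrins and 13 podosome genes. Leaving out 1 library gave between 1021 (without SLIT2 replicate 2) and 1254 of all genes, 0 to 2 adhesion genes, 6 to 8 in activation, 3 to 6 in kinase signalling, 6 to 8 partners, 2 to 3 integrins and 3 to 4 podosome genes. Such fits hold fewer libraries. Differences changed sign for genes that did not pass: Ptk2 was -0.11 in replicates 1 and 2 alone and -0.12 to 0.34 with 1 library left out, Pxn -0.025 in replicates 3 and 4 alone and -0.02 to 0.11, and Emilin2 -0.09 to 0.46. Of 190 values of the 10 genes under alternatives, 141 kept direction and call, 30 lost and 10 gained the call, and 9 changed sign. Only the 4 genes called in the main fit could lose a call, so all 30 losses were theirs. In the 8 fits with 1 library left out, the call was lost in 7 for Tln1, 7 for Vcl, 5 for Icam1 and 4 for Ptk2b. Depth is unknown, so its limit on these values could not be given.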

Other observations

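A kinase and a receptor of myeloid adhesion showed wide differences that the test over all libraries did not call. They were named after their values were seen. Fgr, a Src-family kinase of myeloid cells, was at 8.95, 8.91, 7.14 and 7.32 in vehicle and at 11.10, 10.84, 8.89 and 8.91 in SLIT2 replicates 1 to 4. It differed by 1.86 on the log2 scale (SE 0.66, limma adjusted p = 0.115, 7.15e-05 with the replicate block and 0.0296 with each duplicate pair averaged), by 2.04 for replicates 1 and 2 and by 1.67 for 3 and 4. The groups overlapped, and the replicate sets lay about as far apart as the treatments. Itgam, the CD11b subunit of the integrin that binds ICAM-1, was at 14.62, 14.70, 13.67 and 13.64 in vehicle and at 15.25, 15.23, 14.54 and 14.55 in SLIT2, higher in SLIT2 at every replicate number.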
